A study of Mus musculus with 44 samples.

Results

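The genes described here are the protein-coding genes of the mouse whose symbol is Zfp followed by a number and that lie on chromosomes 2, 7, 9, 10, 13 and 17. GENCODE vM21 holds 209 such genes among 21951 protein-coding genes. Of them, 89 lie on chromosome 7, 41 on chromosome 17, 31 on chromosome 13, 25 on chromosome 2, 18 on chromosome 9 and 5 on chromosome 10. The measurement is ChIP-seq of CTCF in mouse embryonic stem cells (ESCs) of strain TT2 (C57BL/6/CBA F1) with 2 genotypes. In *Setdb1* KO ESCs, a conditional deletion of the H3K9 methyltransferase gene *Setdb1* was induced with 800 nM 4-hydroxytamoxifen (4-OHT) for 4 days, and the cells were harvested on day 6. WT ESCs had genotype WT, and the methods name clone 33#6 as the WT line, with no mention of 4-OHT, so that deletion and drug cannot be told apart. The peak list of 1 library per condition was analysed, so neither a replicate error nor a test between the conditions is given. The labels name a further CTCF library of each condition, which was not analysed here. A list of CTCF peaks does not check the deletion or the cell type, which rest on the labels.

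Most Zfp genes encode proteins with a row of C2H2 zinc fingers, small folds held by a zinc ion that read DNA. Many of these proteins also carry a KRAB domain, which binds the co-repressor TRIM28 (KAP-1), and TRIM28 brings SETDB1 to DNA to write H3K9me3. The family grew by tandem duplication, so that many members lie side by side in clusters. In human cells, the 3′ exons of such genes are known to carry H3K9me3 themselves. CTCF is also a C2H2 zinc finger protein, which binds insulators and the anchors of chromatin loops, and rodent SINE B2 elements are known to carry CTCF sites. H3K9me3 was not analysed here.

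A peak was assigned to a Zfp gene when its summit lay in the gene or within 10 kb of it. *Setdb1* KO peaks are called shared where a WT peak overlaps them by 1 bp or more and KO-only elsewhere, and WT-only is defined in the same way. For each peak, the deposited lists give fold enrichment, which is the pileup over the local background with a pseudocount of 1 in each. The pileup, the whole number of fragments over the summit, was solved from the fold enrichment and the −log10 p. A site called in only a single list has no value in the other list, so no fold is given for it. Depth was close to equal, with 27.6 M tags in the *Setdb1* KO library and 27.4 M in the WT library, and the lowest pileup of a called peak was 8 in *Setdb1* KO and 9 in WT. The values in brackets beside a share are its Wilson 95% interval and those beside a ratio its exact Clopper-Pearson 95% interval. They cover counting error only.

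A few CTCF sites at Zfp genes that held a motif, picked by class and value as set out below, are shown by sequence. Many of them share the same letters. A matrix of 20 bp was learned from 1000 strong shared peaks away from the Zfp genes. Its most frequent base at each position reads TGGCCACCAGGGGGCGCTAG, the CTCF motif. In the lines below, the matrix match is in capitals with 5 bases of flank on either side, in the strand of the motif, read from the GRCm38 reference at the position named. The first lines are those of the 12 KO-only peaks with the highest fold enrichment that held a motif. They are followed by the 5 shared sites with a motif whose ratio of *Setdb1* KO to WT pileup was highest, the site among the 5 lowest ratios that held a motif, and the KO-only peak in a last exon that held a motif.
Zfp202, KO-only, chr9:40216862-40216891, + strand: tgcaaTGGCCTGAAGAGGGCGTCAGatctc
Zfp473, KO-only, chr7:44724466-44724495, + strand: taggcCTCCCAGCAGAGGGCAGAAAagcag
Zfp329, KO-only, chr7:12815759-12815788, − strand: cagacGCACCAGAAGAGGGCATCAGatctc
Zfp977, KO-only, chr7:42591083-42591112, − strand: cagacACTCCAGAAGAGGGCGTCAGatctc
Zfp934, KO-only, chr13:62579329-62579358, − strand: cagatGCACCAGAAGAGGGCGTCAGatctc
Zfp689, shared, chr7:127456814-127456843, + strand: tcgagAGGCCAGAAGAGGGCATCAGatatc
Zfp846, shared, chr9:20610260-20610289, − strand: actaaAGGCCAGAAGAGGGCATCAGatccc
Zfp936, shared, chr7:43174181-43174210, + strand: actttGGGCCACTAGATGGTGCTGGtctaa
Zfp27, shared, chr7:29898548-29898577, − strand: catggAGGCCAGAAGAGGGCATCAGatccc
Zfp114, shared, chr7:24176666-24176695, − strand: ctgagAGACCAGAAGAGGGCGCTGGacacc
Zfp428, shared, chr7:24516495-24516524, + strand: caaggAGGCCACGAGAGGGAGTCAGatgcc
Zfp78, KO-only, chr7:6381624-6381653, − strand: tccgcTTTCCAGAAGAGGGCATCAGatccc
The 12 sites matched the most frequent base of the matrix at 11 to 14 of 20 positions. The longest word held by at least 8 of them was CCAGAAGAGGGC, in exactly 8 sites. This word was picked from these very sites, so its counts are a description. Within 50 bp of the summit and on either strand, it stood in 62 of the 327 *Setdb1* KO peaks at Zfp genes (19.0%, 15.1 to 23.6), against 15.3% of the other *Setdb1* KO peaks of the same chromosomes and 0.457% of windows 1 kb to the left of all *Setdb1* KO summits. All 62 of those peaks were repeat-masked, by the definition given below, as were 7827 of the 8867 *Setdb1* KO peaks of the whole list that held the word. The masking does not name the repeat family.

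At the Zfp genes, 327 CTCF peaks were called in *Setdb1* KO and 243 in WT. Of the *Setdb1* KO peaks, 98 were KO-only, or 29.97% (25.3 to 35.1), against a background of 28.8% of all *Setdb1* KO peaks. The other 229 were shared. Of the WT peaks, 12 were WT-only, or 4.94% (2.85 to 8.43), against 3.22% of all WT peaks. The shares at the Zfp genes thus stand near those of the whole lists, and the interval includes the background in either case. Zfp genes of the other chromosomes, 156 genes with 302 *Setdb1* KO peaks, had a KO-only share of 32.5% (27.4 to 37.9). Among chromosomes, the KO-only share at Zfp genes was 33.3% on chromosome 13 (11 of 33 peaks), 31.5% on chromosome 7 (52 of 165), 29.0% on chromosome 9 (9 of 31), 28.6% on chromosome 2 (14 of 49) and 23.9% on chromosome 17 (11 of 46), and every interval included 28.8%. On chromosome 10, 1 of 3 peaks was KO-only.

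Counted by gene, 149 of the 209 Zfp genes had a *Setdb1* KO peak in reach and 134 had a WT peak. A KO-only peak lay in reach of 81 Zfp genes, or 38.8%, against a background of 41.9% of all protein-coding genes. A WT-only peak lay in reach of 13, or 6.22%, against 5.64%. In all, 16 genes had a *Setdb1* KO peak but no WT peak, 1 gene had a WT peak but no *Setdb1* KO peak, and 59 had no peak in either list. KO-only peaks were mostly single, with 60 genes that had 1 and 21 genes that had 2 or more.

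KO-only peaks at Zfp genes were weak in comparison with shared peaks. Their median fold enrichment was 5.01 and their median pileup 19.0 fragments, against 12.3 and 51.0 fragments for shared peaks. Over all peaks, the medians were 5.02 and 18.0 fragments for KO-only peaks and 13.4 and 55.0 fragments for shared peaks. With the whole *Setdb1* KO list divided into terciles of fold enrichment, the KO-only share at Zfp genes was 69.6% in the lowest tercile (78 of 112 peaks), 15.1% in the middle tercile (19 of 126) and 1.12% in the highest tercile (1 of 89). The shares of all *Setdb1* KO peaks in these terciles were 69.8%, 15.9% and 0.775%. The plot of fold enrichment by place shows that KO-only and shared peaks overlapped in range at every place.

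**Figure D1:**
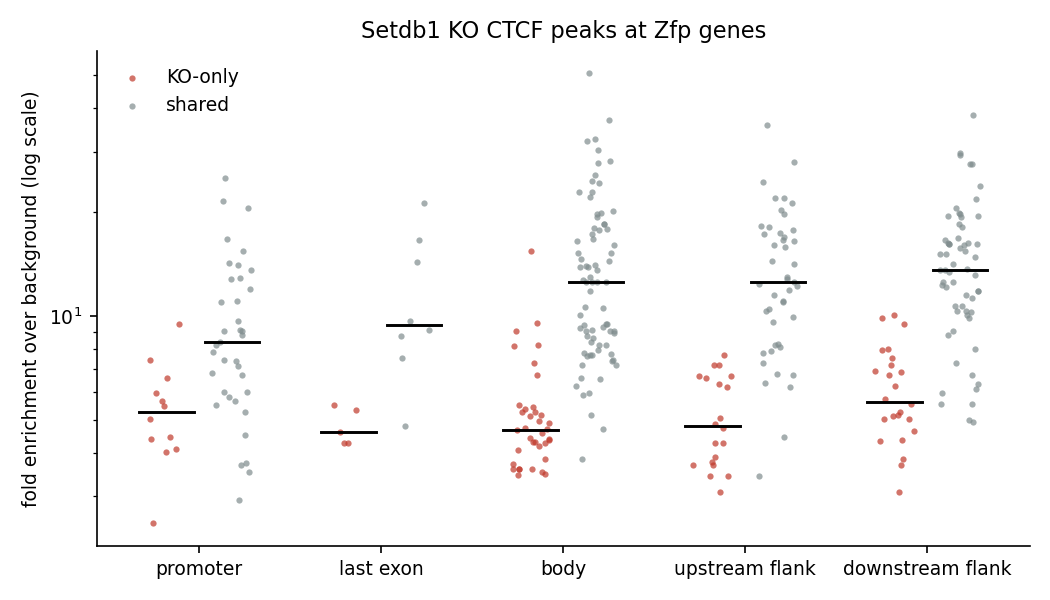
Fold enrichment over background (log scale) of each *Setdb1* KO CTCF peak at the Zfp genes by its place, with KO-only peaks in red, shared peaks in grey and the median of each group as a black line. The median of KO-only peaks lay between 4.59 in last exons and 5.64 in downstream flanks, and that of shared peaks between 8.39 in promoters and 13.6 in downstream flanks.

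The strongest KO-only peak by fold enrichment lay in the body of *Zfp872*, a gene of the KRAB type on chromosome 9. It spanned chr9:22197899-22198623, had a pileup of 54 fragments and a fold enrichment of 15.4, and was 84.2% masked within 50 bp of its summit. No motif was called there, but the best score, 12.46, lay just below the cutoff of 12.59. That score passed the 95th percentile of control windows, 5.16. *Zfp872* had 2 further KO-only peaks with pileups of 27 and 22 fragments. Its only shared site had 48 fragments in *Setdb1* KO against 38 in WT. The next KO-only peaks lay downstream of *Zfp202*, with a fold enrichment of 10.0, and downstream of *Zfp473*, with 9.88. *Zfp473* encodes a protein that in human cells takes part in the processing of histone pre-mRNA. They were followed by peaks in the body of *Zfp560* (9.54), downstream of *Zfp13* (9.49) and at a start of *Zfp64* (9.47).

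The *Zfp64* peak, at chr2:168955199-168955515, had its summit 42 bp from an annotated start and a pileup of 33 fragments. *Zfp64* encodes a zinc finger factor without the KRAB pattern. It had the most *Setdb1* KO peaks of all Zfp genes, 11, of which 3 were KO-only. Its 8 shared sites had pileups of 31 to 161 fragments in *Setdb1* KO and 32 to 129 in WT. The strongest of them, at chr2:168902585-168903199, had 161 fragments in *Setdb1* KO against 129 in WT (ratio 1.25, 0.98 to 1.59). The remaining KO-only peaks among the 12 highest lay at *Zfp329*, *Zfp977*, *Zfp970*, *Zfp580*, *Zfp128* and *Zfp934*, with fold enrichments of 9.05 to 7.72. Of these 12 peaks, 5 held a motif, 7 were masked and 8 lay at clustered genes.

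*Zfp74*, a KRAB-type gene of the largest chromosome 7 cluster, had the most KO-only peaks, 6 of its 8 *Setdb1* KO peaks. Their pileups were 18, 15, 16, 42, 11 and 11 fragments from the lower to the higher coordinate, and 2 of them lay within 1 kb of a start. The other 2 *Setdb1* KO peaks of *Zfp74* were shared. The shared promoter peak had 78 fragments in *Setdb1* KO against 77 in WT (ratio 1.01, 0.73 to 1.41), and the shared peak upstream had 78 in *Setdb1* KO against 53 in WT (ratio 1.47, 1.03 to 2.13). The KO-only peak with 42 fragments lay between these shared sites.

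The neighbours *Zfp580* and *Zfp784* shared several of their peaks. *Zfp580* had 4 KO-only peaks of 5, with pileups of 12, 25, 24 and 38 fragments, and all 3 *Setdb1* KO peaks in reach of *Zfp784* were KO-only, with no WT peak. *Zfp444* had 3 KO-only peaks among 8, and *Zfp141* had 3 of 3, with pileups of 20, 16 and 20 fragments. Those 3 peaks lay in the body of *Zfp141*, each held a motif and each was masked. Together with *Zfp74*, *Zfp872* and *Zfp64*, these were the Zfp genes with at least 3 KO-only peaks. Of the genes with 2, *Zfp977*, *Zfp13* and *Zfp934* had the highest summed fold enrichment of KO-only peaks. In total, 39 of the 327 *Setdb1* KO peaks were in reach of more than 1 Zfp gene and were counted once in every share above.

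The 12 WT-only peaks at Zfp genes were few and weak. The strongest lay upstream of *Zfp365*, at chr10:67921792-67922112, with a pileup of 21 fragments and a fold enrichment of 7.11. The next were in the body of *Zfp934* (15 fragments), downstream of *Zfp53* (17 fragments), upstream of *Zfp667* (22 fragments) and downstream of *Zfp493* (17 fragments). None of these 5 peaks held a motif or was masked over more than 50% of its bases. *Zfp934* had 2 KO-only peaks as well.

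Of the 209 genes, 148 were clustered, that is, had another Zfp gene within 100 kb, and 61 were single. The genes nearest the limit were *Zfp972*, 97.7 kb from its neighbour, and *Zfp72*, 89.2 kb, on the inside, and *Zfp715* and *Zfp936*, 104 kb from each other, on the outside. For the 10 kb window, the last *Setdb1* KO peaks inside lay 9.93 kb from *Zfp365* and 9.94 kb from *Zfp747*, and the first outside lay 10.2 kb from *Zfp235* and *Zfp131*. Peak density was close at clustered and single genes, though which was higher changed with the distance that defines a cluster. The *Setdb1* KO list held 4.01 peaks per 100 kb at clustered and 4.06 at single Zfp genes, a ratio of 0.990 (0.789 to 1.25), and the WT list held 2.91 and 3.12 in the same order. Other protein-coding genes of the 6 chromosomes had 3.31 peaks per 100 kb in the *Setdb1* KO list and 2.49 in the WT list. The authors kept uniquely aligned reads of 75 bp. Of sampled positions, 88.6% at clustered Zfp genes, 87.7% at single Zfp genes and 94.6% at other genes began a 75-mer that occurs once in the genome, so less of the Zfp sequence could be measured. The part of this in the densities was not tested.

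The KO-only share was 32.99% (65 of 197 peaks, 26.8 to 39.8) at clustered genes and 25.4% (33 of 130, 18.7 to 33.5) at single genes. The difference of 7.61 percentage points had an interval of −2.59 to 17.2, which includes no difference. WT-only peaks made up 6.99% (10 of 143) at clustered and 2.00% (2 of 100) at single genes. Counting only summits inside genes, the shares were 41.4% (36 of 87) at clustered and 22.4% (15 of 67) at single genes.

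Among the places, the excess of KO-only peaks at clustered over single genes was widest in gene bodies, without promoter and last exon. In bodies of clustered Zfp genes, 26 of 60 *Setdb1* KO peaks were KO-only, or 43.3% (31.6 to 55.9). In bodies of single Zfp genes the count was 11 of 55, or 20.0% (11.6 to 32.4), and in bodies of other genes of the 6 chromosomes 2419 of 8373, or 28.9% (27.9 to 29.9). The difference between clustered and single bodies was 23.3 percentage points (6.27 to 38.5). This pair of places was singled out after its values were seen, from 5 places compared, and neighbouring peaks of a cluster are not independent. With lists of equal length, 5 of 39 and 2 of 45 peaks were KO-only in bodies of clustered and single genes, a difference of 8.38 points (−4.27 to 22.6).

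**Figure D2:**
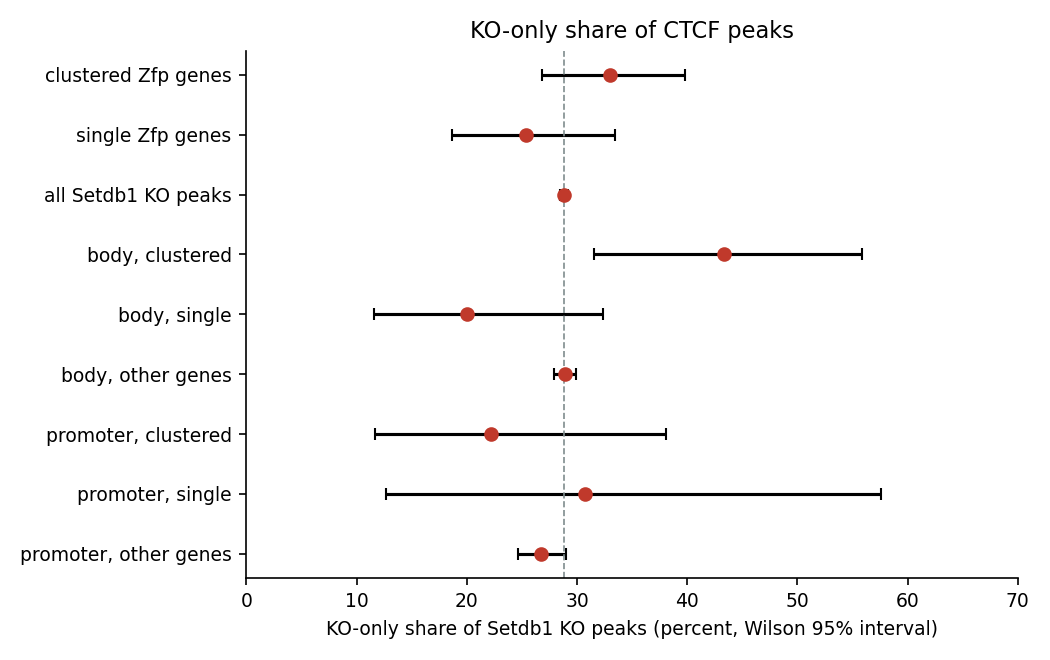
KO-only share of *Setdb1* KO CTCF peaks (percent, points) with Wilson 95% intervals (bars) at clustered and single Zfp genes, in their bodies and promoters, and in other genes of the 6 chromosomes, with the share of all *Setdb1* KO peaks as a dashed line. The body of clustered genes, 43.3%, has an interval above the line, and the intervals of the other Zfp groups include it.

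Clusters differed widely in their counts. The largest cluster by peaks ran over 15 genes from *Zfp84* to *Zfp146* on chromosome 7 (chr7:29768552-30169750), with 30 *Setdb1* KO peaks, 13 of them KO-only (43.3%, 27.4 to 60.8), and 18 WT peaks. It holds *Zfp74* and *Zfp568*. The cluster of 7 genes from *Zfp553* to *Zfp689* (chr7:127233061-127449158) had 15 *Setdb1* KO peaks, of which 1 was KO-only (6.67%, 1.19 to 29.8), and 15 WT peaks. The cluster of 15 genes from *Zfp677* to *Zfp994* on chromosome 17 had 2 of 15 KO-only (13.3%), and the 14 genes from *Zfp712* to *Zfp748* on chromosome 13 had 5 of 11 (45.5%), with 6 of those genes out of reach of any *Setdb1* KO peak. Peaks were scarce in the chromosome 13 cluster of 5 genes from *Zfp738* to *Zfp273*, with 2 *Setdb1* KO peaks, none of them KO-only, and 3 WT peaks.

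Among the smaller chromosome 7 clusters, KO-only peaks were 5 of 13 from *Zfp628* to *Zfp580*, 4 of 14 from *Zfp787* to *Zfp28*, 2 of 5 from *Zfp329* to *Zfp446*, 2 of 9 from *Zfp180* to *Zfp94* and 2 of 6 from *Zfp60* to *Zfp850*. They were 1 of 5 from *Zfp560* to *Zfp846* on chromosome 9 and 3 of 9 from *Zfp871* to *Zfp563* on chromosome 17. The highest share was that of a cluster of 4 genes, from *Zfp141* to *Zfp975* on chromosome 7, with 7 of 8 *Setdb1* KO peaks KO-only (87.5%, 52.9 to 97.8) and 2 WT peaks, and it is named because of that value. In its windows, 88.5% of positions began a unique 75-mer. Among clusters of 3 or more genes, the fewest unique positions were those from *Zfp972* to *Zfp931* on chromosome 2, 45.2%, with 3 *Setdb1* KO peaks. Smaller groups went lower. The clustered neighbours *Zfp968* and *Zfp965* on chromosome 2 had 0.0% unique positions and no peak in either list.

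**Figure D3:**
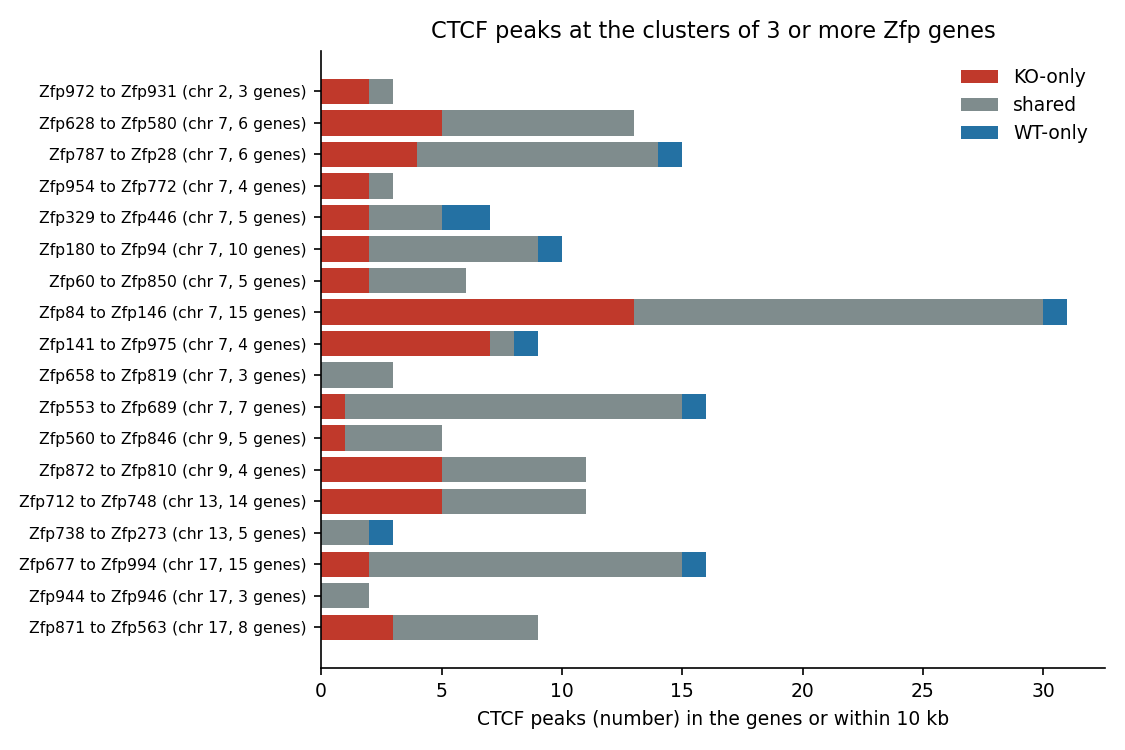
Number of CTCF peaks in reach of each of the 18 clusters of 3 or more Zfp genes, named by the first and last gene, with KO-only peaks in red, shared *Setdb1* KO peaks in grey and WT-only peaks in blue. The cluster from *Zfp84* to *Zfp146* had the most peaks, and 3 clusters had no KO-only peak.

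CTCF peaks were about as dense inside the clusters as at their edges. The 18 clusters, with 122 genes, held 191 *Setdb1* KO peaks between their first and last gene end, or 4.12 per 100 kb, and the 100 kb on either side held 164, or 4.56 per 100 kb. The ratio of inside to edge was 0.905 (0.730 to 1.12), and the edges were denser in 8 of 18 clusters. Inside, 64 of the 191 peaks were KO-only (33.5%, 27.2 to 40.5), and at the edges 47 of 164 (28.7%, 22.3 to 36.01).

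By place, promoters of Zfp genes (within 1 kb of a start) were densest in CTCF and last exons sparsest. *Setdb1* KO peaks per 100 kb numbered 7.77 in promoters, 4.94 in downstream flanks, 4.30 in upstream flanks, 3.14 in the rest of the body and 2.20 in last exons. The other genes of the 6 chromosomes had 6.86 in promoters, 4.28 in downstream flanks, 4.23 in upstream flanks, 2.79 in bodies and 3.36 in last exons. Last exons were the place where Zfp genes had fewer peaks per length than other genes. The counts there were small, with 13 *Setdb1* KO peaks in 592 kb, of which 8 were shared and 5 KO-only, and 9 WT peaks. Whether the lower density exceeds counting error was not tested. Of sampled positions in last exons of Zfp genes, 93.9% began a unique 75-mer, more than in any of the other 4 places.

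The KO-only share by place was 24.5% in promoters (12 of 49), 38.5% in last exons (5 of 13, 17.7 to 64.5), 32.2% in bodies (37 of 115), 30.8% in upstream flanks (20 of 65) and 28.2% in downstream flanks (24 of 85). All 5 intervals included the 28.8% of all *Setdb1* KO peaks. The last-exon KO-only peaks lay at *Zfp94* (22 fragments), *Zfp710* (17 fragments), *Zfp668* (19 fragments), *Zfp78* (24 fragments) and *Zfp523* (14 fragments), all with a fold enrichment of at most 5.52. Among shared peaks in last exons, *Zfp975* had 82 fragments in *Setdb1* KO against 52 in WT (ratio 1.58, 1.10 to 2.28). A last-exon peak of *Zfp444* had 96 fragments in *Setdb1* KO against 69 in WT (ratio 1.39, 1.01 to 1.92), and another, with 30 in *Setdb1* KO and 28 in WT, had a ratio of 1.07 (0.62 to 1.86). *Zfp871* had 31 fragments in *Setdb1* KO against 30 in WT, and *Zfp763* had 27 in each.

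**Figure D4:**
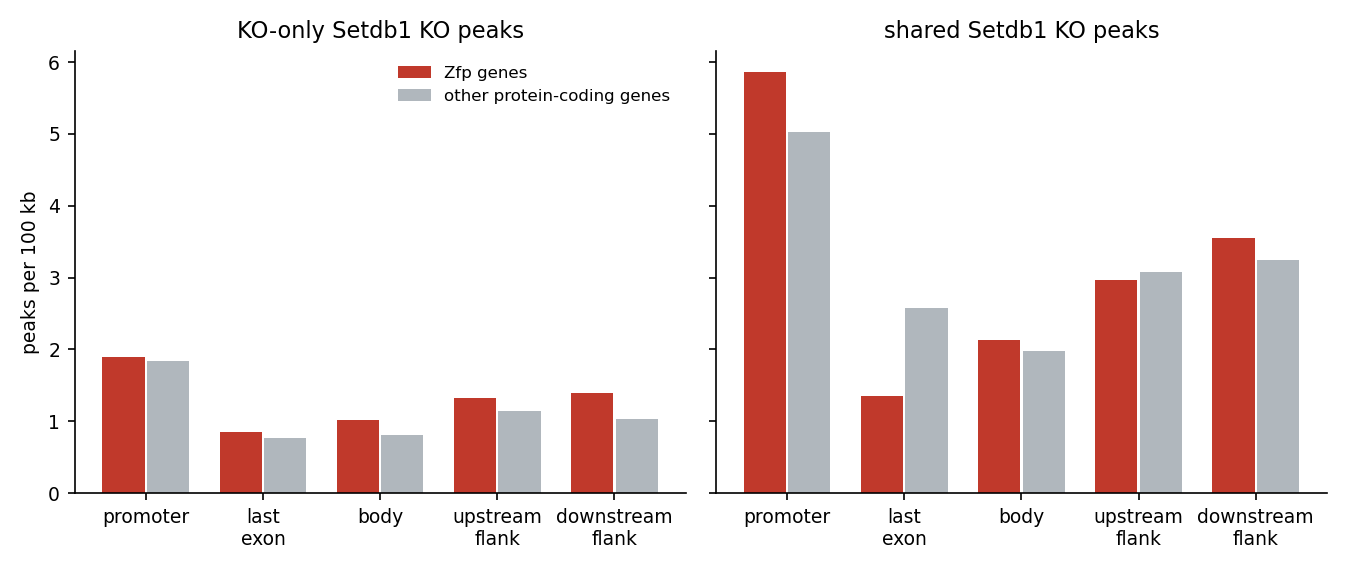
Density of KO-only (left) and shared (right) *Setdb1* KO CTCF peaks, in peaks per 100 kb, by place in the gene, for Zfp genes (red) and for other protein-coding genes of the 6 chromosomes (grey). In last exons the density of shared peaks was 1.35 at Zfp genes and 2.58 at other genes, and that of KO-only peaks was 0.845 and 0.774 in the same order.

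A motif lay within 50 bp of the summit, above the score that 1% of control windows reached, at 34.7% of the KO-only peaks of the Zfp genes (34 of 98, 26.0 to 44.5) and at 60.3% of the shared ones (138 of 229, 53.8 to 66.4). Over all peaks the shares were 36.1% and 65.3% in the same order. None of the 12 KO-only promoter peaks held a motif, a count that allows a share of up to 25%, against 15 of 37 shared promoter peaks (40.5%). At promoters of other genes, 93 of 427 KO-only peaks held a motif (21.8%). In gene bodies the counts were 15 of 37 KO-only (40.5%) and 52 of 78 shared peaks (66.7%). The motif pointed along the gene at 19 of 34 KO-only and 73 of 138 shared motifs, near an even split. A CpG at positions 15 and 16 of the matrix stood in 41.2% of KO-only motifs (14 of 34, 26.4 to 57.8) against 34.1% of shared ones (47 of 138, 26.7 to 42.3). These intervals overlap. Over all peaks the order was the other way, with 28.8% of KO-only motifs (1788 of 6207) against 38.005% of shared ones (10538 of 27728). DNA methylation was not analysed here.

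Repeats were the other feature of these sites. A peak was called masked when more than 50% of the bases within 50 bp of the summit were soft-masked in the reference. At Zfp genes, 49.0% of KO-only peaks (48 of 98, 39.3 to 58.7) were masked and so were 33.6% of the shared ones (77 of 229, 27.8 to 39.97), against 41.4% of all KO-only and 24.7% of all shared peaks. The interval of the shared peaks at these Zfp genes lies above the share over all shared peaks, but at Zfp genes of the other chromosomes 24.5% of shared peaks (50 of 204, 19.1 to 30.8) were masked, near that share. By place, 47.0% of *Setdb1* KO peaks in bodies of Zfp genes and 20.4% of those in promoters were masked, and at other genes of the 6 chromosomes 32.6% and 10.2% in the same order.

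At the Zfp genes, 227 sites paired exactly 1 *Setdb1* KO with 1 WT peak. Their pileup ratio of *Setdb1* KO to WT had a median of 1.35, with quartiles of 1.19 and 1.63. At 41876 such sites of the genome it was 1.36, with quartiles of 1.17 and 1.61. The *Setdb1* KO pileup was higher at 205 of the 227 sites, equal at 5 and lower at 17. The interval of the ratio lay above 1 at 66 sites (29.1%), against a background of 31.5%, and below 1 at none, against 0.0501%. It lay above the genome median at 16 sites (7.05%), against 5.49%. A ratio above 2 was seen at 22 sites (9.69%), against 8.49%. The medians at clustered and single Zfp genes were 1.36 (131 sites) and 1.34 (96 sites). From the 1 library analysed per condition, a library that was better enriched throughout and a gain of binding cannot be told apart, so the member ratios are read against the genome median.

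The highest ratios stood mostly at masked sites. The shared site upstream of *Zfp689* had 62 fragments in *Setdb1* KO against 17 in WT (ratio 3.65, 2.11 to 6.65). Downstream of *Zfp846* the counts were 48 in *Setdb1* KO against 14 in WT (ratio 3.43, 1.86 to 6.73). In the body of *Zfp936* they were 82 in *Setdb1* KO against 26 in WT (ratio 3.15, 2.01 to 5.11). These 3 sites are among the sequences printed above, and 2 of them, *Zfp689* and *Zfp846*, have identical letters in capitals. A promoter site of *Zfp27*, also in reach of *Zfp383*, had 74 fragments in *Setdb1* KO against 25 in WT, and one of *Zfp114* had 74 in *Setdb1* KO and 26 in WT. *Zfp169*, *Zfp949* and *Zfp106* completed the 8 highest, with ratios of 2.81, 2.67 and 2.61. All 8 intervals lay above the genome median of 1.36, 7 of the 8 sites held a motif and 7 were masked.

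Over all 22 Zfp sites with a ratio above 2, 17 were masked (77.3%, 56.6 to 89.9), against 60 of the 205 sites with a ratio of at most 2 (29.3%, 23.5 to 35.8). In the genome, these shares were 56.0% (1992 of 3557) and 21.8% (8363 of 38319). The median ratio was 1.5 at the 77 masked and 1.30 at the 150 other Zfp sites, against 1.52 and 1.32 in the genome. Among sites with a motif it was 1.54 at 63 masked and 1.34 at 75 other Zfp sites. The word CCAGAAGAGGGC stood in 10 of the 22 Zfp sites with a ratio above 2 (45.5%) and in 28 of the other 205 (13.7%). In the genome the shares were 34.5% and 11.7%. The word was picked from sites partly printed for their high ratio, so the contrast at Zfp sites is partly built in. The sites with a ratio above 2 had a lower WT level, with a median WT pileup of 18.0 fragments against 37.0 at the others, and the part of the WT level in these shares was not tested.

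**Figure D5:**
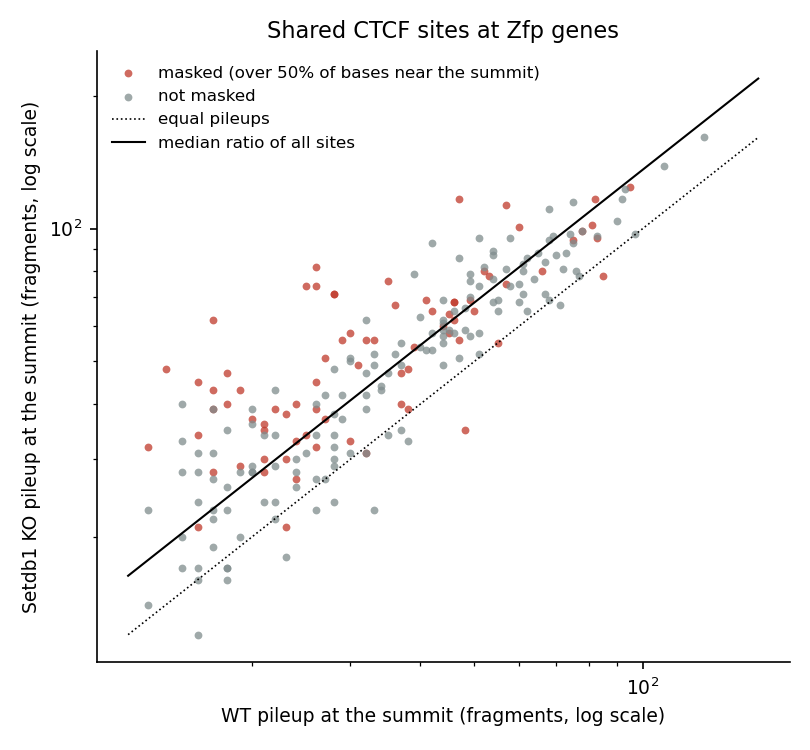
Pileup at the summit in *Setdb1* KO (vertical axis) and WT (horizontal axis), in fragments on log scales, for the 227 paired CTCF sites at Zfp genes, with masked sites in red and others in grey. The dotted line marks equal pileups and the solid line the genome median ratio of 1.36, and 72 of 77 masked sites and 133 of 150 other sites lie above the dotted line.

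The lowest ratios had intervals that included 1. They were 0.697 (0.391 to 1.22) downstream of *Zfp365*, with 23 fragments in *Setdb1* KO against 33 in WT, 0.729 (0.458 to 1.15) in the body of *Zfp318*, with 35 in *Setdb1* KO and 48 in WT, and 0.783 (0.398 to 1.52) downstream of *Zfp536*. A promoter site of *Zfp60* (0.857) and a site downstream of *Zfp428* (0.868) followed. Of these 5 sites, 1 held a motif and 1 was masked. The sites with a ratio of at most 1 at Zfp genes, 22 in number, held a motif in 5 cases (22.7%, 10.1 to 43.4). This interval includes the 40.2% of such sites in the genome.

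Members with a known role were described one by one, whatever their values. *Zfp57*, which keeps DNA methylation at imprinted regions, had a shared upstream site with 65 fragments in *Setdb1* KO against 55 in WT (ratio 1.18, 0.81 to 1.72), and a weak KO-only peak downstream with 13 fragments. *Zfp809*, which directs silencing of proviruses in ESCs, had 3 shared sites and a KO-only promoter peak with 29 fragments. One of its shared promoter sites, fully masked, had 34 fragments in *Setdb1* KO against 16 in WT (ratio 2.12, 1.14 to 4.12), while the site in its body had 31 and 32 in the same order. *Zfp568*, a repressor of a placental *Igf2* transcript, had 5 shared sites with ratios of 1.12 to 1.94, a KO-only peak in its body with 18 fragments and a WT-only peak with 14. Its upstream site had 62 fragments in *Setdb1* KO against 32 in WT (ratio 1.94, 1.25 to 3.07).

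*Zfp143*, a factor of promoters and loop anchors, had a shared body site that was nearly equal, with 80 fragments in *Setdb1* KO against 76 in WT, and a KO-only peak with 28. *Zfp36* encodes tristetraprolin, a CCCH-type protein of mRNA decay and no C2H2 factor. Its 3 shared sites had 75, 52 and 69 fragments in *Setdb1* KO against 60, 51 and 68 in WT, and a fully masked KO-only peak upstream had 16. *Zfp598*, a ubiquitin ligase that acts on collided ribosomes, had 3 shared sites, with 69, 30 and 94 fragments in *Setdb1* KO against 55, 24 and 68 in WT, and no KO-only peak. All 7 of these shared sites had a higher pileup in *Setdb1* KO, and the intervals of their ratios included the genome median of 1.36.

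*Zfp217*, an oncogene in human breast cancer, had 3 shared sites with 79, 68 and 80 fragments in *Setdb1* KO against 49, 54 and 61 in WT, and a KO-only peak with 16. *Zfp335*, a factor needed in neural progenitors, had shared sites with 101 and 68 fragments in *Setdb1* KO against 60 and 46 in WT, and 2 KO-only peaks with 13 and 19. *Zfp369* had shared sites with 71 and 71 fragments in *Setdb1* KO against 61 and 67 in WT, and a fully masked KO-only peak in its body with 13. *Zfp110*, its relative, had no peak in either list. *Zfp106*, an RNA-binding protein, had a single site, with 47 fragments in *Setdb1* KO against 18 in WT (ratio 2.61, 1.49 to 4.78). *Zfp366* had a KO-only peak in its body with 14 fragments and no WT peak. The 8 sites of *Zfp536*, a negative regulator of neuronal differentiation and the longest of the Zfp genes at 302 kb, were all shared, with a median ratio of 1.18.

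The proteins of the 209 genes, translated from the longest coding sequence, held a median of 11 C2H2 fingers of the pattern C-x2-C-x12-H-x3-H, up to 33. The pattern was missing in 13, among them *Zfp36*, *Zfp143* and *Zfp598*, and a looser spacing left 5. Clustered genes had a median of 11.5 and single genes 9 fingers. The KRAB pattern was the letters EEW followed at a short distance by VM-x-E. A KRAB domain spelled otherwise is missed, so genes without the pattern may still encode one. It was found in 82 of 148 clustered (55.4%) and 22 of 61 single genes (36.1%). A KO-only peak lay in reach of 39 of 104 genes with the KRAB pattern (37.5%, 28.8 to 47.1) and 42 of 105 without it (40%, 31.1 to 49.6), with overlapping intervals. No *Setdb1* KO peak lay in reach of 35 genes with the pattern (33.7%) and 25 without it (23.8%). The median share of unique 75-mers in the gene windows was 94.6% with the pattern and 98.3% without it. For some genes with the pattern, such as *Zfp968*, it was 0.0%, so that CTCF could hardly be measured there. The part of this in the 2 shares was not tested.

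A list of 14 silencing genes holds *Trim28*, *Setdb1*, *Atf7ip* and the HP1 genes *Cbx1*, *Cbx3* and *Cbx5*. It also holds *Uhrf1*, *Atrx*, *Daxx*, *Smarcad1*, *Morc2a*, *Mphosph8*, *Pphln1* and *Fam208a*. Of the 14 genes, 13 had a *Setdb1* KO peak in reach and 8 a KO-only peak (57.1%), against 41.9% of all protein-coding genes. With so few genes, whether this difference exceeds counting error was not tested. *Trim28* had 4 *Setdb1* KO peaks, 1 of them KO-only, and 3 WT peaks. *Setdb1* had 3 peaks in either list, all shared. *Cbx1* and *Uhrf1* had the most KO-only peaks of the list, 4 each. Other C2H2 genes by symbol on the 6 chromosomes (Zscan, Zkscan, Zbtb and the like) had a KO-only peak in reach in 17 of 45 cases (37.8%).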

How the data were processed

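CTCF ChIP-seq peak lists of 1 *Setdb1* KO and 1 WT library were analysed, with groups taken from the labels. Per the submitters' processing notes and the methods, the authors aligned reads of 75 bp to mm10 (GRCm38) with Bowtie 1.2, kept unique alignments, removed duplicates with Picard and called peaks against input with MACS2 2.1.0 at a q of 0.05. Reads from near-identical copies are therefore missing. The deposited score is the whole part of 10 times the −log10 q. The deposited fold enrichment is a ratio of summit pileup to local background with a pseudocount of 1 in each, and the deposited −log10 p and −log10 q belong to the summit, whose offset from the peak start is also deposited. From these values, whole-number pileups and backgrounds were solved for 100.0% of peaks in both lists. Depths derived in the same way were 27.6 M tags in *Setdb1* KO and 27.4 M in WT (input 28.5 M and 30.9 M). The lists hold 59698 *Setdb1* KO and 44241 WT peaks, with median lengths of 385 bp and 343 bp.

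Gene models were from GENCODE vM21 and sequences from the GRCm38 reference. Last exons are those of the longest coding transcript, and proteins were translated from GENCODE coding sequences, not from RefSeq. Peaks, places, motifs and intervals were computed in Python 3.11.15 with numpy 2.4.6, pandas 2.3.3, scipy 1.17.1 and Biopython 1.88, with samtools 1.23.1 for sequence and matplotlib 3.10.9 for plots. The motif threshold was the 99th percentile of the best score in control windows lying 1 kb leftward of each summit. Tested on simulated data, the steps recovered 2662 of 2662 pileups, 2000 of 2000 overlaps and 12 of 12 places. A motif was called in 0 of 1000 random windows. Of 1000 sites drawn from the matrix, only the 909 that scored above the threshold were planted, and all 909 were called. That count was set by the choice of sites and does not measure how many motifs the search misses.

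No test between conditions was made, since the peak list of 1 library of each was analysed. The Zfp genes, the gene lists and the alternatives were chosen with earlier results of these data known. Genes were named by rule: the 12 KO-only peaks of highest fold enrichment, the 10 genes with most KO-only peaks (ties by summed fold enrichment), the 8 highest and 5 lowest ratios at a summed pileup of at least 40, the 5 strongest WT-only peaks, KO-only peaks in last exons, clusters of at least 5 genes, genes of known role and those nearest the thresholds. The word shared by printed sites, the contrast of clustered and single gene bodies, the clusters of 3 or 4 genes and the shared peaks in last exons were chosen after their values were seen. The further CTCF libraries that the labels name, those of replicate 2 of both conditions and of the lines labelled C21KO and C31KO, and the other assays of the series were not analysed here.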

Additional observations from a re-analysis of the deposited data

How the results depend on the processing

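Of 145 values recomputed under alternatives, 116 stayed within the limits set for them and 29 moved. Lists cut to equal length by −log10 q moved the most: 31 of 244 peaks were KO-only at Zfp genes (12.7%, against 11.7% of all peaks) and 28 peaks were WT-only, and the KO-only share was 9.38% in promoters, 0 of 7 in last exons, 8.33% in bodies, 15.7% in upstream flanks and 18.6% in downstream flanks. With a reciprocal overlap of 50%, the KO-only share was 35.2% and 31 peaks were WT-only, and with summits within 100 bp 19 were WT-only. Summits inside genes alone gave 51 KO-only and 5 WT-only peaks and a difference between clustered and single genes of 19.0 points (4.04 to 32.4), and a window of 50 kb gave 209 and 24 peaks. Without chromosome 7, an alternative added after seeing the data, the counts were 46 and 5. With clusters joined within 250 kb, the density ratio of clustered to single genes was 0.787 (0.625 to 0.995), and within 50 kb it was 1.097, so the side of 1 depends on this distance. The authors' fold enrichment in place of the pileup gave a median ratio of 1.29. A motif threshold at the 95th percentile of control windows gave shares of 51.0% for KO-only and 82.5% for shared peaks. A search within 100 bp gave 26.5% for KO-only and 38.9% for shared peaks. Its cutoff, the 99th percentile of equally wide control windows, was higher, 16.59 in place of 12.59. The difference in KO-only share between clustered and single genes was above 0 in 12 of 12 alternatives, and its interval included 0 in 10 of them. These alternatives largely recount the same peaks and are not independent. Clustering by any C2H2 gene by symbol gave the main counts again, 65 of 197 and 33 of 130 peaks. No paired analysis was possible because 1 peak list of each condition was analysed. Sites below the peak callers' threshold have no value, so an absent peak is not a measured absence of CTCF.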
